A study of Homo sapiens with 12 samples.

Results

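The 8 genes described here handle fatty acids and glucose. They are ATP citrate lyase (ACLY), malic enzyme (ME1), an acyl-CoA synthetase (ACSL1), very long chain acyl-CoA dehydrogenase (ACADVL), an acyltransferase (AGPAT2), angiopoietin-like protein (ANGPTL4), hexokinase (HK1) and liver-type phosphofructokinase (PFKL). Every probe that the platform annotation assigns to one of these symbols was taken, which gave 9 probes of the 15650 with a gene symbol and 8 of 13881 genes. PFKL had 2 probes, PH_hs_0032896 (probe A) and PH_hs_0024080 (probe B), and each other gene had 1. ANGPTL4 is a secreted protein and not an enzyme.

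Total RNA was taken from cells labelled HepG2, an established line from a human hepatocellular carcinoma grown in medium with fetal bovine serum. Cells had received 25 µM glycyrrhizin (a triterpenoid saponin of liquorice root), 25 µM silymarin (flavonolignans of milk thistle), 25 µM ursodeoxycholic acid (a hydrophilic bile acid) or a mock treatment, called control here, with 3 arrays in each of the 4 groups. How long cells were treated is not stated in the sources used here. The labels do not state whether replicate arrays stand for separate cultures. The p-values below therefore measure array-to-array spread only, and that spread may be technical.

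Cytosolic acetyl-CoA for fatty acid synthesis is made from citrate by ACLY, and ME1 supplies NADPH for the same pathway. Fatty acids are activated to acyl-CoA by ACSL enzymes, then oxidized in mitochondria, where ACADVL starts on the longest chains, or esterified, where AGPAT2 makes phosphatidic acid on the way to triglyceride and phospholipids. ANGPTL4 inhibits lipoprotein lipase and is a known target of the PPAR receptors, while HK1 and PFKL catalyse early, energy-consuming steps of glycolysis.

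All 12 arrays had nearly the same distribution of intensities, with array medians between 85.8 and 86.6 on the linear scale. The median correlation across probes was 0.934 within groups and 0.933 between groups. Ursodeoxycholic acid replicate 1 and silymarin replicate 2 had the lowest median correlation with the other arrays, 0.908 and 0.911, and the lowest array weights, 0.562 and 0.579. Of 16 hepatocyte markers 12 were measured, and the albumin gene ALB had no named probe. Their 16 probes had a median log2 intensity of 6.3, against 6.56 over all named probes, and 6 neuroblast marker probes had a median of 8.86, with TH at 12.49 and STMN2 at 11.08. Probe by probe, 6 of these 16 lay above control with glycyrrhizin (median difference −0.09), 6 with silymarin (−0.26) and 10 with ursodeoxycholic acid (0.18). At an unadjusted p under 0.05 in limma, 2 of the 16 were lower with glycyrrhizin (3.25% of all probes). With silymarin 1 was lower (2.22%) and with ursodeoxycholic acid 3 were (2.75%). On the higher side there were 0 with glycyrrhizin (2.4%), silymarin (3.09%) or ursodeoxycholic acid (2.84%). Of the marker probes of any list, 0 passed the threshold. Levels of different probes are not on one scale, and what these marker levels contribute to any result was not tested.

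No probe of the 8 genes passed the threshold, an adjusted p under 0.05 from limma over all 15650 probes, in any of 7 comparisons. The lowest p-values of the members belonged to PFKL, which was measured highest with glycyrrhizin and lowest with silymarin on both of its probes. ME1 had the opposite order, lowest with glycyrrhizin and highest with silymarin. AGPAT2 and ACLY lay above every control array on 9 of 9 treated arrays, as did 0.39% of all probes. Each differed by about 0.33 log2 units in the mean of the 3 agents, always against the same 3 control arrays. Gene positions are those of RefSeq on GRCh38.p14. Log2 intensities are given throughout, and a difference is the mean of the group named first minus that of the other.

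**Figure D1:**
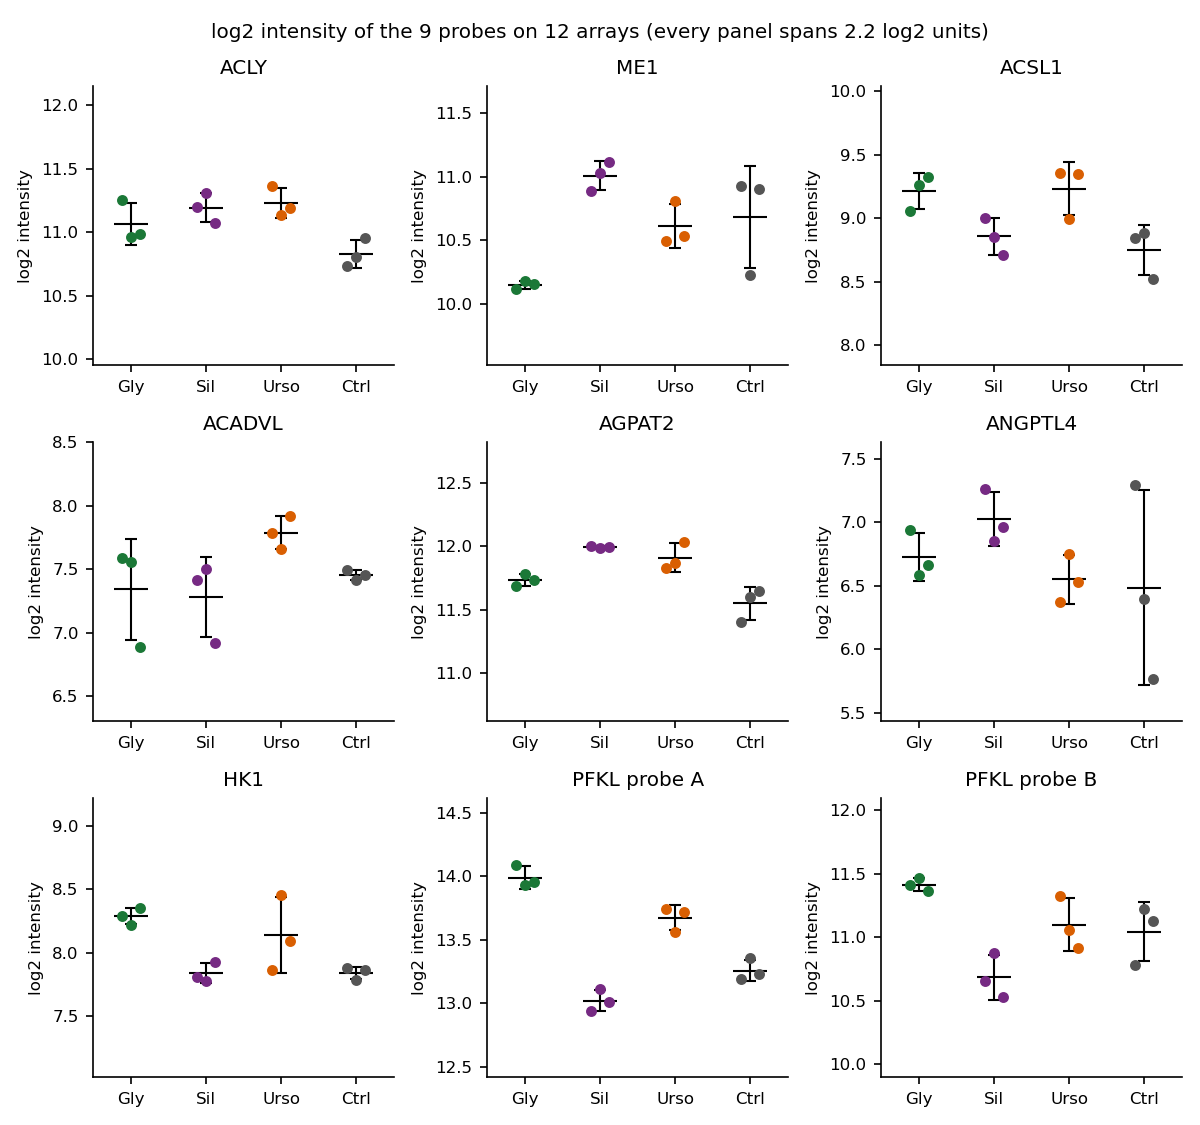
Log2 intensity of the 9 probes (vertical axis) in cells given glycyrrhizin (Gly), silymarin (Sil) or ursodeoxycholic acid (Urso) and in control (Ctrl), with 1 point per array, a horizontal bar at the mean and an error bar of 1 SD (n = 3). The glycyrrhizin arrays of both PFKL probes lie above all control arrays, those of ME1 lie below them, and the control arrays of ME1 and ANGPTL4 are spread widely.

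PFKL (chr21:44300053-44327373), the liver-type subunit of the enzyme that commits sugar to glycolysis, was read by probe A at 14.09, 13.93 and 13.95 with glycyrrhizin, 12.94, 13.11 and 13.01 with silymarin, 13.74, 13.56 and 13.72 with ursodeoxycholic acid and 13.19, 13.35 and 13.23 in control. The 4 groups did not overlap on this probe. Probe B gave 11.42, 11.47 and 11.36 with glycyrrhizin, 10.65, 10.88 and 10.53 with silymarin, 11.32, 11.06 and 10.92 with ursodeoxycholic acid and 10.78, 11.22 and 11.13 in control. On probe B only the glycyrrhizin arrays lay above all others, and the ursodeoxycholic acid and control arrays overlapped. The order of the group means was the same on both probes, glycyrrhizin, ursodeoxycholic acid, control, silymarin.

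Between glycyrrhizin and silymarin, PFKL probe A differed by 0.97 (SE 0.16, 95% interval 0.61 to 1.33, 1.96-fold), with an unadjusted p of 0.00011 that ranked 18 among all probes. Its adjusted p in limma was 0.0931, so it did not pass. Probe B differed by 0.73 (SE 0.2, 1.66-fold, adjusted p = 0.231). With a variance trend and robust estimation, limma's adjusted p was 0.000286 for probe A and 0.0325 for probe B, and probe A also passed with an offset of 50, without the dimmer 50% of probes and with array weights. Over all 24 alternatives the adjusted p of probe A ran between 0.000286 and 0.414, with 4 past the threshold. The alternative that averaged the probes of a gene is counted among them, although it joined A and B (0.85, adjusted p = 0.129 in limma).

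Against control, glycyrrhizin gave a difference of 0.73 on PFKL probe A (SE 0.16, 95% interval 0.37 to 1.09, adjusted p = 0.469 in limma) and 0.37 on probe B (SE 0.2, adjusted p = 0.9). Probe A passed with the variance trend (adjusted p = 0.00791) and with none of the other 23 alternatives, among which the average of both probes is counted. Ursodeoxycholic acid differed from control by 0.42 on probe A (SE 0.16) and by 0.06 on probe B (SE 0.2), so that the probes disagreed in size. Silymarin lay below control on both, by −0.24 and −0.36, without passing. Set against ursodeoxycholic acid, silymarin differed by −0.65 on probe A (SE 0.16, adjusted p = 0.39 in limma, 0.0188 with the variance trend) and by −0.41 on probe B.

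ME1 (chr6:83210402-83431051), the cytosolic malic enzyme that makes NADPH, read 10.11, 10.18 and 10.16 with glycyrrhizin, 10.88, 11.03 and 11.11 with silymarin, 10.49, 10.81 and 10.53 with ursodeoxycholic acid and 10.93, 10.22 and 10.91 in control. Its glycyrrhizin arrays lay close together and below all the others, and control replicate 2 lay apart from the other control arrays. Glycyrrhizin differed from silymarin by −0.86 (SE 0.22, 95% interval −1.35 to −0.38, 1.82-fold lower with glycyrrhizin), with an adjusted p of 0.2 in limma and 0.03 with the variance trend. From control it differed by −0.54 (SE 0.22, adjusted p = 0.823), or by −0.77 without control replicate 2. Silymarin differed from control by 0.32 (SE 0.22), or by 0.09 without that array, and ursodeoxycholic acid by −0.07 (SE 0.22).

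Over the 12 arrays ME1 and PFKL ran in opposite directions. Pearson's r was −0.86 with probe A (Spearman's rho −0.89) and −0.86 with probe B (rho −0.88), while the PFKL probes correlated with each other at 0.85 (rho 0.9). When each array was taken as its deviation from its group mean, r was −0.6 and −0.47 for ME1 with probes A and B and 0.49 for the PFKL probes. Before that centring these were the lowest and the highest r of the 36 pairs of member probes, whose median r was 0.07. After it AGPAT2 with ANGPTL4 was the lowest at −0.68 and ACLY with PFKL probe A the highest at 0.63. The PFKL and ME1 pairs were picked from the 36, are given as a description over 12 arrays in 4 groups, and share the hybridizations. Without the 2 arrays farthest from the median of ME1, r with probe A was −0.77.

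**Figure D2:**
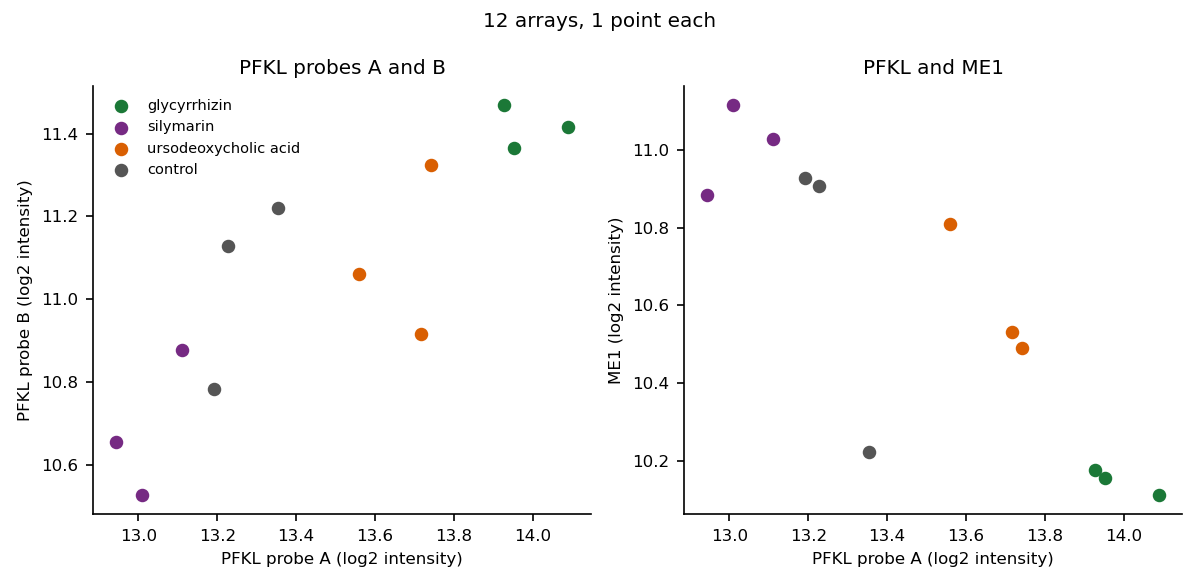
Log2 intensity of PFKL probe B (left) and of ME1 (right) on the vertical axis against PFKL probe A on the horizontal axis, with 1 point for each of the 12 arrays, coloured by group. Glycyrrhizin and silymarin arrays sit at opposite ends of both panels, and control replicate 2 lies far below the other control arrays for ME1, at 10.22.

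The sequences before the starts of PFKL and ME1 are shown because these genes had the strongest opposite course of the members, a choice made after their values were seen. They are 250 bases upstream of the RefSeq start on GRCh38.p14, PFKL at chr21:44299803-44300052 on the plus strand and ME1 at chr6:83431052-83431301 on the minus strand, with capitals at each match to the GC box GGGCGG or the core of the antioxidant response element TGACNNNGC on either strand.
PFKL: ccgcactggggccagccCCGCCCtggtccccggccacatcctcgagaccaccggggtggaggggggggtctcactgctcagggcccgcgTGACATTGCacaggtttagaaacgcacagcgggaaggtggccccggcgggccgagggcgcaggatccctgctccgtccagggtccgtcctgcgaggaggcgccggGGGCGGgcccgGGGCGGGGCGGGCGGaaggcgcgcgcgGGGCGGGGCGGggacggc
ME1: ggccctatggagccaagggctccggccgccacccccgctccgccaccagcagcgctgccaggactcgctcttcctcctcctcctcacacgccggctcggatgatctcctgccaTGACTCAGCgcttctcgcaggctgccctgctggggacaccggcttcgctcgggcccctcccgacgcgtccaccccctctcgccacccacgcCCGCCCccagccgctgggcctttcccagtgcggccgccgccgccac
PFKL held 7 GC boxes, some of which share letters, and ME1 held 1. Each held 1 antioxidant response element core, the element through which the stress factor NRF2 acts. Of 35116 promoter windows of the same length, 42.6% held a GC box and 10.9% the antioxidant core. Neither window held the E-box CACGTG (6.34% of windows), the hypoxia core ACGTG, which lies within that E-box (18.5%), CCAAT (32% of windows) or the PPAR element, AGGTCA repeated after 1 base (0.0171%). A match in these letters is a description and not a binding site. Binding was not measured, and the probes' own sequences were not used here.

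HK1 (chr10:69270000-69401882), the hexokinase found in most tissues, read 8.29, 8.22 and 8.35 with glycyrrhizin, 7.81, 7.78 and 7.93 with silymarin, 7.87, 8.46 and 8.09 with ursodeoxycholic acid and 7.88, 7.78 and 7.86 in control. All 3 glycyrrhizin arrays lay above every silymarin and control array, while the ursodeoxycholic acid arrays spanned 7.87 to 8.46. The difference of glycyrrhizin from control was 0.45 (SE 0.19, 95% interval 0.03 to 0.86, adjusted p = 0.835 in limma) and from silymarin also 0.45 (adjusted p = 0.48). Between silymarin and control HK1 differed by −0.0006 with an interval of −0.42 to 0.42.

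ACLY (chr17:41866917-41930545), which cleaves citrate to acetyl-CoA, read 11.25, 10.96 and 10.98 with glycyrrhizin, 11.2, 11.31 and 11.08 with silymarin, 11.37, 11.14 and 11.19 with ursodeoxycholic acid and 10.74, 10.81 and 10.95 in control. Every treated array lay above every control array, the closest being glycyrrhizin replicate 2 at 10.96 and control replicate 3 at 10.95. The difference from control was 0.23 with glycyrrhizin (SE 0.18), 0.36 with silymarin (SE 0.18) and 0.4 with ursodeoxycholic acid (SE 0.18, unadjusted p = 0.0445), none of which passed. The order of the means was ursodeoxycholic acid, silymarin, glycyrrhizin, control, and no neighbours in it differed beyond the spread (adjusted p of at least 0.897 in limma).

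AGPAT2 (chr9:136673143-136687457), which acylates lysophosphatidic acid to phosphatidic acid, read 11.69, 11.78 and 11.73 with glycyrrhizin, 12, 11.99 and 12 with silymarin, 11.83, 11.87 and 12.04 with ursodeoxycholic acid and 11.41, 11.6 and 11.65 in control. Its treated arrays, too, all lay above the control arrays, and the silymarin arrays had an SD of only 0.0085. Silymarin differed from control by 0.44 (SE 0.16, 95% interval 0.08 to 0.8, 1.36-fold, adjusted p = 0.875 in limma). The difference was 0.18 with glycyrrhizin (SE 0.16) and 0.36 with ursodeoxycholic acid (SE 0.16, unadjusted p = 0.0514). For the mean of the 3 agents AGPAT2 and ACLY differed from control by 0.33 each (SE 0.13 and 0.14, adjusted p = 0.998 for both). Of all probes, 0.39% lay above every control array on all 9 treated arrays and 0.447% below, against 2 and 0 of the 9 member probes. At an unadjusted p under 0.05, 3 member probes were higher in this mean (2.82% of all) and 0 lower (1.9%). These comparisons share the 3 control arrays, so a low control array moves all of them together.

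ACSL1 (chr4:184755595-184826594), the main long chain acyl-CoA synthetase of liver, read 9.06, 9.26 and 9.33 with glycyrrhizin, 9, 8.85 and 8.71 with silymarin, 9.36, 8.99 and 9.35 with ursodeoxycholic acid and 8.85, 8.88 and 8.52 in control. The glycyrrhizin and ursodeoxycholic acid arrays lay above all control arrays and the silymarin arrays overlapped them. Differences from control were 0.47 with glycyrrhizin (SE 0.2, adjusted p = 0.831 in limma), 0.48 with ursodeoxycholic acid (SE 0.2, adjusted p = 0.877) and 0.11 with silymarin (SE 0.2). Glycyrrhizin and ursodeoxycholic acid differed from each other by −0.02, with a 95% interval of −0.45 to 0.42.

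ACADVL (chr17:7217125-7225266), the mitochondrial dehydrogenase that begins oxidation of very long acyl chains, read 7.59, 7.55 and 6.88 with glycyrrhizin, 7.41, 7.5 and 6.92 with silymarin, 7.78, 7.66 and 7.92 with ursodeoxycholic acid and 7.49, 7.42 and 7.45 in control. Ursodeoxycholic acid gave the highest 3 arrays of the 12, and replicate 3 of both glycyrrhizin and silymarin lay well below the other arrays of its group. The difference from control was 0.33 with ursodeoxycholic acid (SE 0.24, 95% interval −0.19 to 0.86), −0.11 with glycyrrhizin and −0.17 with silymarin (SE 0.24 each). Without their replicate 3, glycyrrhizin differed by 0.12 and silymarin by 0.01.

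ANGPTL4 (chr19:8364155-8374370), the secreted lipase inhibitor, read 6.94, 6.58 and 6.66 with glycyrrhizin, 7.27, 6.85 and 6.96 with silymarin, 6.37, 6.75 and 6.53 with ursodeoxycholic acid and 7.29, 6.39 and 5.77 in control. The control arrays spanned more than all treated arrays together, so no agent separated from control. Silymarin differed from control by 0.54 (SE 0.33, 95% interval −0.19 to 1.28), or by 0.95 without control replicate 1 and 0.18 without control replicate 3. Its mean of 6.7 over the 12 arrays lay close to the median of 6.56 over all probes, and no detection call accompanied the values, so signal and background could not be told apart for it.

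**Figure D3:**
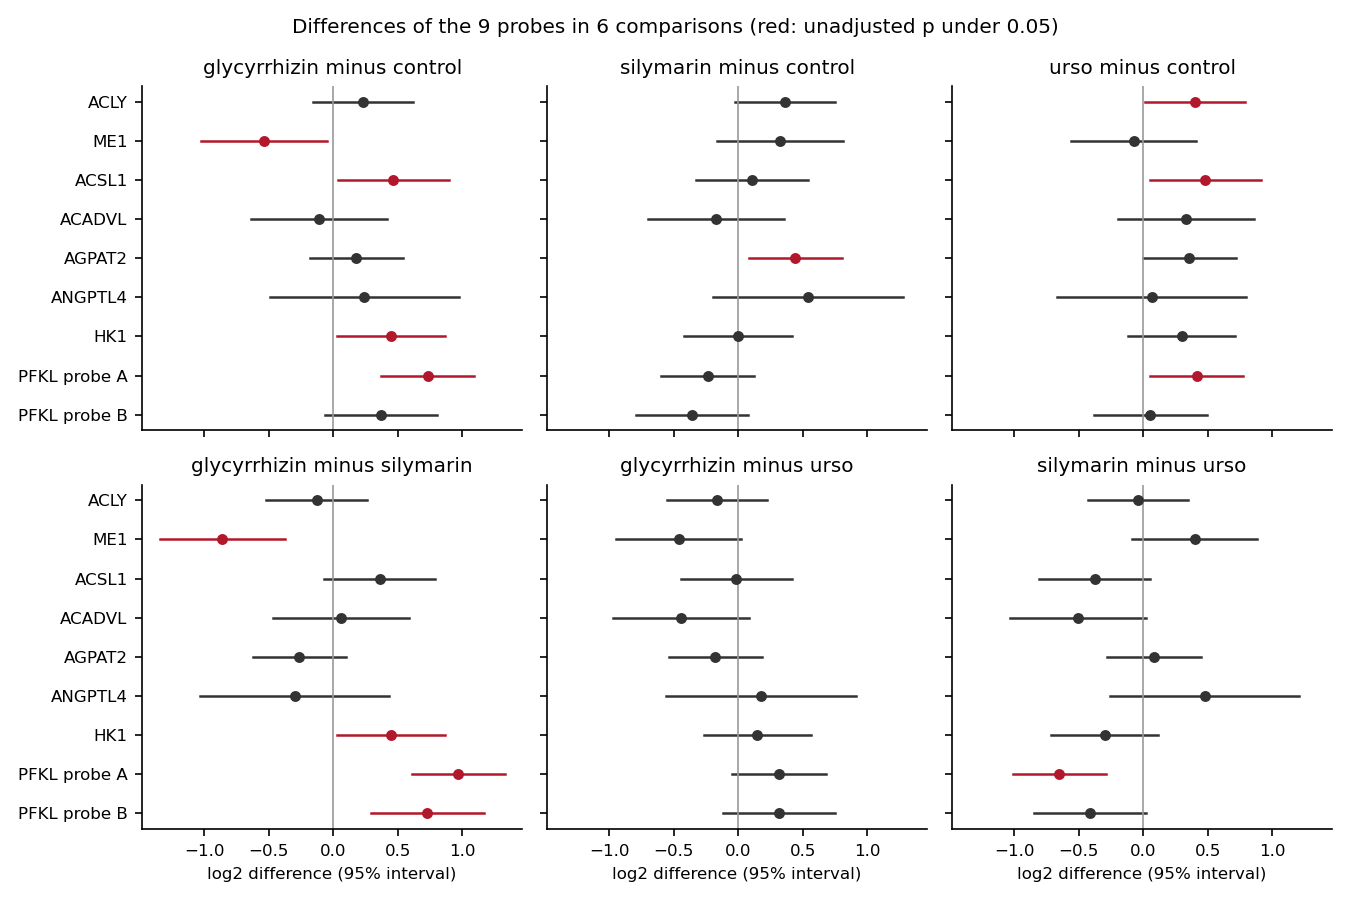
Log2 differences (horizontal axis) of the 9 probes in the comparisons of each agent with control (upper row) and of the pairs of agents (lower row), as points with 95% intervals from the limma fit and in red where the unadjusted p was under 0.05. The interval of PFKL probe A for glycyrrhizin minus silymarin, 0.61 to 1.33, and that of ME1, −1.35 to −0.38, lie farthest from 0.

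Counted over the 9 probes, 0 passed in limma for glycyrrhizin against control, where 0.00639% of all tested probes did. At an unadjusted p under 0.05 there were 3 higher, against 2.4% of all probes, and 1 lower, against 3.25%. The arrays of glycyrrhizin and control did not overlap for 6 higher probes (6.84% of all) and 1 lower probe (5.79%). The median difference of the 9 was 0.24, beside 0.02 over all probes. With silymarin 0 passed (0% of all), 1 lay at an unadjusted p under 0.05 on the higher side (3.09%) and 0 on the lower side (2.22%). Groups did not overlap for 2 higher probes (6.22%) and 1 lower (4.55%), and the median was 0.11 beside 0.02. With ursodeoxycholic acid 0 passed (0%), 3 were higher at an unadjusted p under 0.05 (2.84%), 0 were lower (2.75%), 5 were higher without overlap (5.39%), 0 were lower without overlap (4.23%) and the median was 0.33 beside 0.02.

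The members were chosen with earlier results of these data known, and their counts above the background carry that choice. For the pairs of agents, glycyrrhizin and silymarin differed at an unadjusted p under 0.05 for 4 of the 9 probes, 3 higher with glycyrrhizin (3.51% of all) and 1 lower (6.05%), and 0 passed in limma (0.0447% of all). Their arrays did not overlap for 4 probes higher with glycyrrhizin (8.62%) and 2 lower (9.02%). Glycyrrhizin and ursodeoxycholic acid did so for 0 of the 9 (2.59% of all on the higher and 2.47% on the lower side), with 0 past the threshold (0%), and their arrays did not overlap for 2 higher (5.6%) and 3 lower (5.95%). The widest 95% interval of that pair was that of ANGPTL4, −0.56 to 0.91, so the agents are not shown to act alike. Silymarin and ursodeoxycholic acid did so for 1, PFKL probe A (3.41% of all on the lower and 4.97% on the higher side), with 0 past the threshold (0.0256%), and their arrays did not overlap for 2 higher (6.82%) and 3 lower (7.62%). All pairs are adjusted over the 15650 probes within each comparison.

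**Figure D4:**
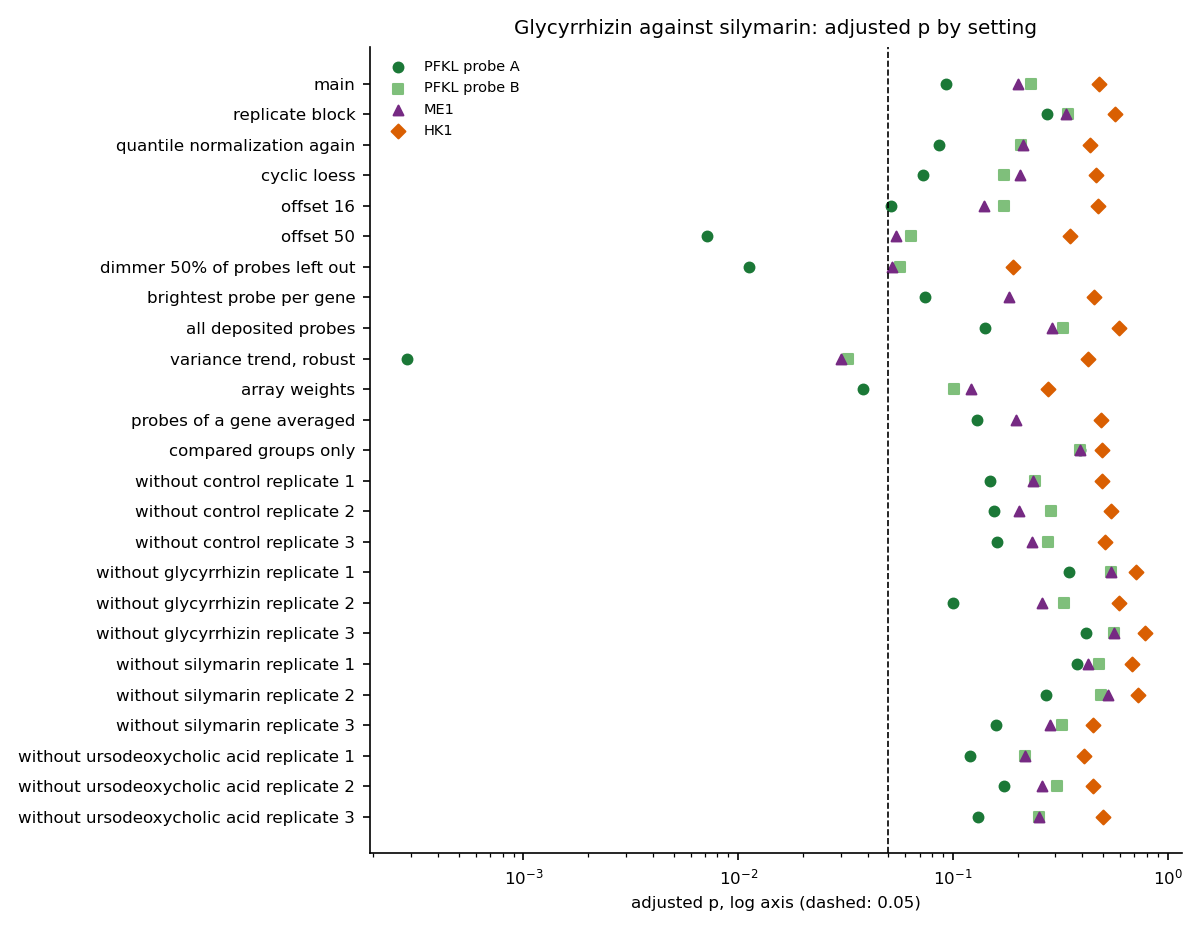
Adjusted p (horizontal axis, log scale, dashed line at 0.05) of PFKL probes A and B, ME1 and HK1 for glycyrrhizin against silymarin, as reported (top row) and under 24 alternatives (vertical axis). PFKL probe A lies left of the line under 4 of them, probe B and ME1 under the variance trend alone, and HK1 under none. In the row for averaged probes, the point of probe A is the mean of probes A and B.

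In the glycolysis list, 19 of 25 genes were measured with 22 probes, including those of PFKL and HK1. With glycyrrhizin 0 passed in limma, 4 lay higher and 0 lower at an unadjusted p under 0.05 (2.4% and 3.25% of all probes), and the median difference was 0.03. Of these 4, PFKL probe A and HK1 are members already described, and the others were ENO2 and the glucose phosphate isomerase GPI (0.6). The neuronal enolase ENO2 averaged 12.19 ± 0.09 with glycyrrhizin and 11.66 ± 0.18 in control (SD, n = 3 each; difference 0.53, adjusted p = 0.756 in limma). The other phosphofructokinase subunits lay on the other side of 0 with glycyrrhizin, the muscle form PFKM at −0.17 (SE 0.31) and the platelet form PFKP at −0.24 (SE 0.26), neither past the threshold. HK2, the inducible hexokinase, differed by −0.45 (SE 0.3). With silymarin the median of the 22 probes was −0.14, with 2 higher and 1 lower at an unadjusted p under 0.05 (3.09% and 2.22% of all probes). The lower was a probe of the aldolase ALDOC (−0.46, adjusted p = 0.93 in limma). A different ALDOC probe gave 0.11 with silymarin (SE 0.22), so the probes of this gene disagreed. With ursodeoxycholic acid the median of the 22 probes was 0.04. At an unadjusted p under 0.05, 1 probe, PFKL probe A, was higher (2.84% of all probes).

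The fatty acid synthesis list, which includes ACLY and ME1, had 13 of 15 genes measured with 14 probes, of which 0 passed in limma with any agent. Median differences were −0.12 with glycyrrhizin, −0.13 with silymarin and −0.02 with ursodeoxycholic acid. SREBF1, the transcription factor that drives lipogenic genes, averaged 6.26 ± 0.42 with ursodeoxycholic acid and 7.44 ± 0.61 in control (SD, n = 3 each). That difference of −1.18 (SE 0.41, adjusted p = 0.812 in limma) had the opposite sign to that of ACLY, and the same probe gave −0.96 with glycyrrhizin and −1.16 with silymarin. A different SREBF1 probe gave −0.23 with glycyrrhizin, −0.32 with silymarin and 0.36 with ursodeoxycholic acid (SE 0.41 each), so the probes disagreed. In the triglyceride and phosphatidic acid list, AGPAT2 and 12 other genes were measured with 16 probes, again with 0 past the threshold. At an unadjusted p under 0.05, 1 probe was higher with glycyrrhizin (2.4% of all probes), 3 with silymarin (3.09%) and 2 with ursodeoxycholic acid (2.84%). None was lower with glycyrrhizin (3.25% of all probes), silymarin (2.22%) or ursodeoxycholic acid (2.75%). With silymarin the 3 were the member AGPAT2, the phosphatidate phosphatase LPIN2 (1.17, SE 0.4) and DGAT1, which completes triglyceride synthesis (0.56, SE 0.22).

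Fatty acid activation and mitochondrial oxidation, the list of ACSL1 and ACADVL, had 22 of 24 genes measured with 24 probes and 0 past the threshold in limma. The median difference was −0.003 with glycyrrhizin, 0.09 with silymarin and 0.1 with ursodeoxycholic acid. With silymarin ACSL6 differed by 0.61 (SE 0.25) and ACSL4 by 0.39 (SE 0.18), while ACSL1 stood at 0.11. With glycyrrhizin ACSL6 differed by −0.24, ACSL4 by −0.1 and ACSL5 by −0.14, while ACSL1 stood at 0.47. ACSL3 had the widest error of the family and differed by 1.09 with glycyrrhizin, 1.06 with silymarin and 0.29 with ursodeoxycholic acid (SE 0.71 each). None of these passed the threshold. The carnitine transferase CPT1A, which admits acyl groups to mitochondria, differed by −0.03 with glycyrrhizin, −0.27 with silymarin and 0.3 with ursodeoxycholic acid (SE 0.22 each).

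PPAR receptors and their known targets, among them ANGPTL4, ACSL1 and ACADVL, had 12 of 19 genes measured with 15 probes. With ursodeoxycholic acid 13 of the 15 probes lay above control, with a median of 0.27 beside 0.02 over all probes. The member probes of ACSL1, ACADVL and ANGPTL4 are among these 13, and some of the listed genes have more than 1 probe. With this agent 0 passed in limma, and 1, the member ACSL1, was higher at an unadjusted p under 0.05 (2.84% of all probes). Glycyrrhizin gave a median of 0.08 and silymarin one of 0.09, with 9 probes above control for each. PPARA itself differed by −0.53 with silymarin on 1 probe (SE 0.23, adjusted p = 0.93) and by −0.28 on its other probe, and the lipid droplet protein PLIN2 by 0.47 with glycyrrhizin (SE 0.24). PDK4, a PPAR target that restrains pyruvate oxidation, had 2 probes, which gave 0.85 (SE 0.5) and −0.23 (SE 0.34) with ursodeoxycholic acid. Lipoprotein lipase and its regulators had 4 of 11 genes measured with 5 probes, and those with the lowest p beside ANGPTL4 were hepatic lipase LIPC (0.38) and the lipase maturation factor LMF1 (0.4), both with silymarin and neither past the threshold.

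**Figure D5:**
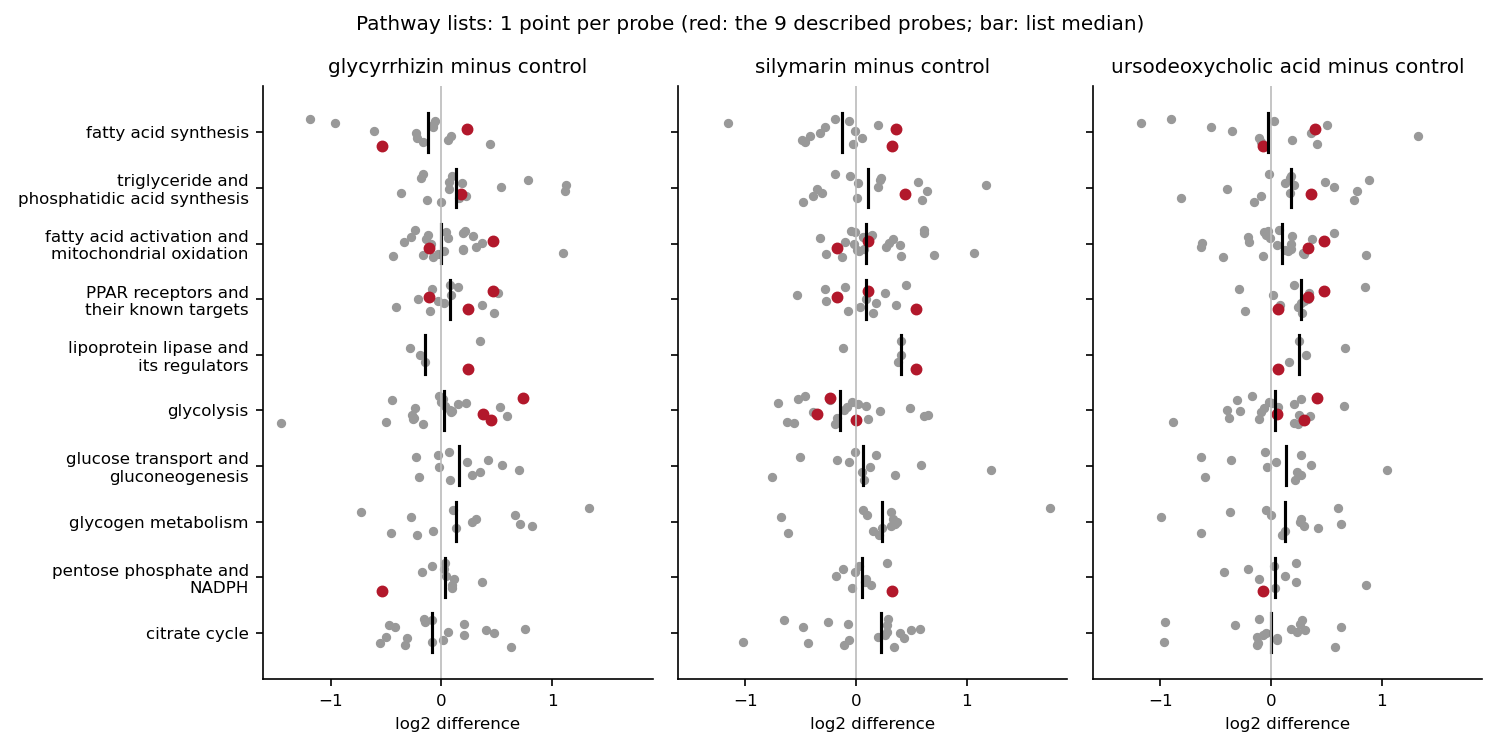
Log2 differences from control (horizontal axis) of every probe in 10 pathway lists (rows) for glycyrrhizin, silymarin and ursodeoxycholic acid, with the 9 member probes in red and a black bar at each list's median. The list medians lie between −0.14 and 0.4, and the members spread across both sides of 0.

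The spread of the members around their group means was compared with the 500 probes nearest in mean intensity. The residual SD was 0.09 for AGPAT2, below which lay 4.6% of those probes, and 0.16 for HK1, below which lay 5.4%. PFKL probe A had 0.09 against a median of 0.15 for its neighbours, ACSL1 0.18 against 0.28 and ACLY 0.13 against 0.2. ME1 at 0.23 and ANGPTL4 at 0.42 stood near the middle of their neighbours, with 50.8% and 44.4% below them. The SE of the fit for AGPAT2, 0.16, is larger than its own spread gives, because limma draws each probe's variance towards that of all probes.

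Among 7294 other genes with a probe at or above the median intensity, those most like each member over the 12 arrays were ranked by Pearson's r, as a description. Closest to PFKL probe A were the splicing regulator HNRNPLL (0.95) and MCTS1 (0.93), and closest to ME1 were JKAMP (0.96) and TPT1 (0.93). ACSL1 was followed most closely by CYP4B1 (0.94) and SPSB2 (0.92), AGPAT2 by PSPHP1 (0.93) and RTL10 (0.87), and ACLY by ILF2 (0.9) and ENTPD4 (0.89). For HK1 these were TTC39B (0.89) and IGSF8 (0.89), for ACADVL ALMS1 (0.9) and ADA (0.85) and for ANGPTL4 OGN (0.91) and LMO4 (0.9). None of these genes is on the pathway lists. The best of 7294 correlations over 12 arrays is bound to be high.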

How the data were processed

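The deposited table holds a normalized, linear-scale intensity for each probe on each of 12 single-colour arrays, hybridized with Cy5-labelled RNA per the labels' protocols. The submitters' processing notes name limma without its steps. Intensities ran from 1 to 65221, and values of equal rank on the 12 arrays differed by a median of 1.22%.

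Probes were named from the platform annotation, with 2355 older symbols updated through RefSeq and 68 ambiguous ones kept. The 11911 probes without a symbol were left out. Log2 intensities of 15650 probes entered lmFit and eBayes of limma 3.58.1 (R 4.3.3; 1 mean per group over all 12 arrays, 8 residual and 2.72 prior degrees of freedom). The 7 comparisons set each agent and the mean of all 3 against control, and the agents against one another in 3 pairs. Two-sided p-values had Benjamini-Hochberg adjustment over all 15650 probes and a threshold of 0.05. Every member probe was kept separate. The number of arrays limits the precision, and no background or detection measure was used here.

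The members and gene lists were chosen with earlier results of these data known. All member probes are named, and of each pathway list the 3 probes with the lowest p against control; other genes named were chosen after their values were seen. Promoters are RefSeq sequences on GRCh38.p14. The fit was also run on simulated data with independent errors, where changes larger than the members' reported differences were planted with glycyrrhizin alone. That run did not cover smaller changes or errors shared between arrays. Alternatives changed the normalization, offsets, dim probes, the joining of probes, the variance model, array weights, the groups fitted, the use of a replicate block and the arrays, each left out in turn.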

Additional observations from a re-analysis of the deposited data

How the results depend on the processing

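Of 35 member differences recomputed under 24 alternatives, 8 of 832 values passed the threshold, all for PFKL or ME1 as given above, and 18 changed sign. The sign changes belonged to 8 differences whose reported values lay between −0.17 and 0.24. Against control, with 1 array left out, ACADVL lay between −0.23 and 0.12 with glycyrrhizin and −0.29 and 0.0058 with silymarin (each highest without its replicate 3), and ACSL1 with silymarin between −0.0076 (without control replicate 3) and 0.18. HK1 with silymarin gave 0.011 with array weights and −0.046 to 0.030 with 1 array left out. ME1 with ursodeoxycholic acid reached 0.084 with array weights and lay between −0.31 and 0.047 with 1 array left out. For ANGPTL4, glycyrrhizin gave −0.12 to 0.65 with 1 array left out, and ursodeoxycholic acid −0.29 to 0.47, or −0.0077 with cyclic loess. PFKL probe B with ursodeoxycholic acid gave −0.016 with array weights and −0.075 to 0.15 with 1 array left out.

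Over all probes, limma called 1 probe for glycyrrhizin against control, and 0 with the replicate block, with all deposited probes or on the compared groups alone, 3 with cyclic loess, an offset of 16 or the dimmer 50% left out, 8 with an offset of 50, 18 with the variance trend, 4 with array weights and 0 without any 1 array. Silymarin against control, 0 as reported, had 1 with an offset of 16 or array weights, 2 with an offset of 50 or without dim probes and 4 with the variance trend. Ursodeoxycholic acid against control, also 0, had 5 with cyclic loess, 4 and 7 with offsets of 16 and 50, 3 without dim probes, 6 with the variance trend and 0 to 21 with 1 array left out. The mean of the agents, 0, had 1 and 4 with offsets of 16 and 50, 6 with the variance trend and 0 to 1 with 1 array left out. Glycyrrhizin against silymarin, 7, had 0 with the replicate block or the compared groups alone, 17 and 135 with the offsets, 148 without dim probes, 216 with the variance trend, 21 with array weights and 0 to 5 with 1 array left out. Glycyrrhizin against ursodeoxycholic acid, 0, had 0 to 2 with 1 array left out. Silymarin against ursodeoxycholic acid, 4, had 0 with the replicate block, all probes or the compared groups alone, 10 with an offset of 50, 7 with 1 probe per gene or probes averaged, 16 with the variance trend and 0 to 29 with 1 array left out. The cause of these shifts was not tested, and the counts of 21 and 29 came without ursodeoxycholic acid replicate 3.

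Same-numbered arrays of different groups deviated together at an r over 0.1 in 4 of 18 pairs (median 0.02). Differently numbered arrays did so in 5 of 36 pairs (median −0.005). Deviations from a group's own mean depend on one another, so these counts cannot decide whether the numbers pair the arrays. With the replicate block, PFKL probe A had an adjusted p of 0.275 for glycyrrhizin against silymarin. Precision was lowest for ANGPTL4, whose residual SD of 0.42 was the largest of the members.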

Other observations

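The remaining carbohydrate lists held 0 probes past the threshold in limma with any agent. In the citrate cycle, 13 of 17 listed genes were measured with 18 probes, and their median difference from control was −0.08 with glycyrrhizin, 0.23 with silymarin and 0.004 with ursodeoxycholic acid. With glycyrrhizin the succinyl-CoA ligase subunit SUCLG2 averaged 7.66 ± 0.08, against 6.91 ± 0.29 in control (SD, n = 3 each), without overlap (difference 0.75, SE 0.22, unadjusted p = 0.00526, adjusted p = 0.645). On the same arrays OGDH, of the oxoglutarate dehydrogenase complex, differed by −0.47 (SE 0.18) and PDHA1, of pyruvate dehydrogenase, by 0.63 (SE 0.24), neither past the threshold. The other SUCLG2 probes gave −0.42 (SE 0.56) and −0.15 (SE 0.41), and a different PDHA1 probe −0.08 (SE 0.37), so the probes of these genes disagreed.

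Glycogen metabolism had 11 of 12 genes measured with 13 probes, of which 11 lay above control with silymarin (median 0.23, beside 0.02 over all probes). At an unadjusted p under 0.05, 0 of the 13 were higher with silymarin (3.09% of all probes) and 1, GYS2, was lower (2.22%), at −0.61 (SE 0.25). The muscle glycogen synthase GYS1 differed by 0.67 with glycyrrhizin (SE 0.26) and UGP2, which makes UDP-glucose, by −0.73 (SE 0.31). The liver synthase GYS2 differed by −0.63 with ursodeoxycholic acid (SE 0.25). For UGP2 with glycyrrhizin and GYS2 with ursodeoxycholic acid, treated and control arrays overlapped. Of glucose transport and gluconeogenesis, 10 of 11 genes were measured with 12 probes. The liver glucose transporter SLC2A2 differed by 1.22 with silymarin (SE 0.47), but its silymarin and control arrays overlapped. It was dim, with a control mean of 3.96 beside a median of 6.56 over all named probes. The mitochondrial PEP carboxykinase PCK2 differed by 0.35 with silymarin (SE 0.17), and SLC2A1 by −0.63 with ursodeoxycholic acid (SE 0.3). For SLC2A1 the ursodeoxycholic acid and control arrays overlapped. The pentose phosphate and NADPH list, with 9 of 11 genes and 10 probes, was led by ME1. RPIA (0.86 with ursodeoxycholic acid, SE 0.42) and transketolase TKT (0.37 with glycyrrhizin, SE 0.2) followed. RPIA was also dim, with a control mean of 4.08.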
